A study of Mus musculus with 25 samples.

Results

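A set of 10 genes of the unfolded protein response were followed through cortex RNA of an amyloid mouse model given natural products. The 10 genes, chosen by name with earlier results of these data known, are Hspa5, Hsp90b1, Sdf2l1, Edem1, Atf4, Xbp1, Ddit3, Dnajb9, Creld2 and Manf. They are 10 of the 21720 genes in the deposited count table, and all 10 passed the filter on low counts, with at least 337 reads in every library.

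The RNA came from 25 male mice aged 6 months, 5 in each of 5 groups. The wild type group, of strain C57BL/6J, was given vehicle. The other 20 mice were of strain B6C3 and carried transgenes of an amyloid model of Alzheimer's disease, among them APPswe, a mutated form of human APP. One transgenic group received vehicle and is called the model control. The vestitol group received (-)-Vestitol, a plant isoflavan, at 5 mg/kg, the salviolone group Salviolone, a diterpenoid of sage plants, at 5 mg/kg, and the combination group both at 2.5 mg/kg each. All were injected into the peritoneum once a day for 3 months. Each group had 8 mice in the study, of which 5, picked at random, were sequenced, and a donepezil group was not analysed here. Strain and genotype differ together between wild type and transgenic mice, so that their effects cannot be told apart. The model overexpresses its transgenes from a mouse Prnp promoter, and the rows for App and Prnp can include transgene reads: in CPM (the usual measure of counts scaled to library size), App was 1383 to 1800 CPM in wild type and 3439 to 5066 CPM in the 20 transgenic mice. Each of the 20 transgenic libraries thus matched its label.

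The unfolded protein response adjusts the folding capacity of the endoplasmic reticulum (ER) to its load of unfolded proteins. In textbook accounts, 3 sensors in the ER membrane start it. IRE1, the product of Ern1, splices Xbp1 RNA into a form that encodes an active transcription factor. ATF6 is cut in the Golgi and enters the nucleus, and PERK, the product of Eif2ak3, phosphorylates eIF2α, which slows translation in general and favours that of Atf4. The factors XBP1 and ATF6 raise chaperone and degradation genes, whereas ATF4 raises genes of amino acid supply and the factor CHOP, the product of Ddit3. Gene-level read counts do not separate spliced from unspliced Xbp1, and a change in Atf4 translation is not visible in RNA.

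XBP1 and ATF6 are known to act through the ER stress response element (ERSE), so the start regions of the members were read for it. RefSeq windows of 300 bases, from 250 before to 50 after the start (build GRCm38.p6, whereas the deposited counts use mm39), were found for 9 of the 10 members. The ERSE was searched on both strands as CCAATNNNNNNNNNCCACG. It was present in the windows of Hspa5, Hsp90b1 and Creld2, that is 3 of 9, against 39 of 32851 windows of all genes (0.119%). Hspa5 encodes BiP, the main Hsp70 chaperone of the ER, and Hsp90b1 encodes GRP94, the Hsp90 chaperone of the ER. Creld2 encodes an ER protein with disulfide isomerase activity. The 3 windows are shown because they carry the element. Capitals mark an ERSE match or a match to the core TGACGTG of the element bound by XBP1 (UPRE). In Hsp90b1, 1 further run with 1 mismatch to the ERSE, from -172 to -154, is also in capitals. The windows, 5′ to 3′ on the strand of the gene, lie at chr2:34771840-34772139 (plus strand, Hspa5), chr10:86705395-86705694 (minus strand, Hsp90b1) and chr15:88819396-88819695 (plus strand, Creld2).
Hspa5: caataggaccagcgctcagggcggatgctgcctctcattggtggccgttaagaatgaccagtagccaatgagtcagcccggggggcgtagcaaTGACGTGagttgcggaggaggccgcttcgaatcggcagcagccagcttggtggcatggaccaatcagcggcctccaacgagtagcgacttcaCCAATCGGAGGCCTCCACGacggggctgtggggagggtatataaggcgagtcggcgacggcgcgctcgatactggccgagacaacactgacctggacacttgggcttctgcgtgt
Hsp90b1: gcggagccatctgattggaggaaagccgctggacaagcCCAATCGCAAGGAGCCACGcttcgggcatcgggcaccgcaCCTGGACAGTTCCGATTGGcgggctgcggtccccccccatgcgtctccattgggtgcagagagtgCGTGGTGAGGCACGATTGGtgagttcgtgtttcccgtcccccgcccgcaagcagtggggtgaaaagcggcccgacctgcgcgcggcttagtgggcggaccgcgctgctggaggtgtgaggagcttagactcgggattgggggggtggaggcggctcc
Creld2: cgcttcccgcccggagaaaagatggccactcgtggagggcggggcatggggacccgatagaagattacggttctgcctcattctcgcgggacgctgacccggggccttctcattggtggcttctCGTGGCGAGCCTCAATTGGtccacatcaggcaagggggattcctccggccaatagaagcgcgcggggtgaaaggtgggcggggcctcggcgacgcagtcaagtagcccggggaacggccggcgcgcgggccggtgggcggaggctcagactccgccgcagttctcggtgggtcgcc

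Counted from the start, the Hspa5 ERSE spans -65 to -47 and its UPRE core -157 to -151, a core found in 2.01% of all windows. Hsp90b1 holds an ERSE at -212 to -194 and another, on the opposite strand, at -107 to -89. The Creld2 element, also on the opposite strand, spans -126 to -108. For comparison, the windows of 3 members called higher than wild type in the model control and in both single-compound groups are shown next: Sdf2l1 (chr16:17132334-17132633, minus strand), Edem1 (chr6:108828391-108828690, plus strand) and Atf4 (chr15:80254934-80255233, plus strand). None of the 3 has a match to be set in capitals.
Sdf2l1: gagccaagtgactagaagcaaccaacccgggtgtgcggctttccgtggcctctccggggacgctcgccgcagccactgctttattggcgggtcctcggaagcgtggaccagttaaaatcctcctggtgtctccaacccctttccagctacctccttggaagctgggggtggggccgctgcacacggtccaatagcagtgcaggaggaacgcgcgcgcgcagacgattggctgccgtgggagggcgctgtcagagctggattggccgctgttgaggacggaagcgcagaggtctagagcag
Edem1: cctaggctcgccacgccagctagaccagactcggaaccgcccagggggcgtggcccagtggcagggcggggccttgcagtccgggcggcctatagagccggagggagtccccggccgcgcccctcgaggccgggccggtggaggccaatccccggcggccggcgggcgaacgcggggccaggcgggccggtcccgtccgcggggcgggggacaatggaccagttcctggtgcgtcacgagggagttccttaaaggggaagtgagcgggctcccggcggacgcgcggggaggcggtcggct
Atf4: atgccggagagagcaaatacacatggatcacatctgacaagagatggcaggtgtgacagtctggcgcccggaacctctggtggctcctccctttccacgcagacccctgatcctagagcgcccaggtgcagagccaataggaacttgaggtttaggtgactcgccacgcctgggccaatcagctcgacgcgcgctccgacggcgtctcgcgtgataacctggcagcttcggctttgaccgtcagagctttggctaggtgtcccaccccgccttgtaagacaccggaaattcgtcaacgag

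The end pieces of the ERSE were common in these windows: CCAAT was in 8 of 9 members, against 37.4% of all windows, and CCACG in 7 of 9, against 32.8%. When 1 mismatch was allowed, Ddit3 joined the 3 genes with an ERSE (4 of 9, against 1.5% of all windows). The related ERSE-II (ATTGGNCCACG, 0.0365% of all windows) and the amino acid response element bound by ATF4 (TGATGNAA, 3.97%) were in none of the 9. Such matches describe the letters of these windows only, and they overlap: each ERSE also counts as a CCAAT and a CCACG.

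Libraries held 59376320 to 109776852 reads assigned to genes. The 3 deepest, combination mice 3, 4 and 5, had 100379303 to 109776852. The mean log2 CPM of 8 neuronal markers was 9.0 to 9.37; 2 of them were called higher in the model control than in wild type, and 1 was higher and 2 lower in the combination group than in the model control. The libraries differed in markers of neighbouring tissue. Wild type mouse 3 carried pituitary hormone RNA, with 5316 CPM of growth hormone (Gh), against at most 3.07 CPM in any other mouse. The mean log2 CPM of 13 hypothalamus markers, called the hypothalamus score below, was -0.57 to 2.71 in wild type, -0.44 to 1.47 in model control, -1.07 to 0.18 in vestitol, -0.12 to 0.50 in salviolone and 1.56 to 3.91 in combination mice. Against the model control, 9 of the 13 markers were higher in the combination group and 1 (Npy) was lower, and for the model control against wild type 1 (Npy) was higher and 3 were lower. Model control mice 4 and 5 were high in choroid plexus markers (10 genes, 3.59 and 2.38, against 0.60 to 1.23 in the other 3). In whole cortex, fewer cells of a type and less RNA per cell cannot be told apart.

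Per kilobase of annotated exon, Hsp90b1 had the highest mean level of the 10 (72.0 ± 7.02 CPM per kb, SD over 25 mice), then Atf4 (57.6 ± 7.77) and Hspa5 (53.5 ± 8.44). Atf4 and Hspa5, neighbours in this order, lie closer than their SD. Xbp1 followed at 28.1 ± 4.17 CPM per kb, and Manf, Ddit3, Creld2 and Sdf2l1 lay between 8.78 and 12.3 CPM per kb. Dnajb9 at 5.62 ± 0.71 and Edem1 at 4.73 ± 0.46 CPM per kb were the lowest. All further levels are CPM without length, compared within a gene only.

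The first comparison asks how the model differed from wild type on vehicle. Of the 10 genes, 4 rose in the model control: Sdf2l1, Xbp1, Atf4 and Edem1, by log2 fold changes of 0.26 to 0.68, and none fell. Over all 16515 genes tested, 5.37% were called higher. The median log2 fold change of the 10 genes was 0.24, against -0.01 over all tested genes. Since the genes were chosen with earlier results known, these values describe them and are no independent test. A call is an adjusted p under 0.05 in edgeR's quasi-likelihood F test, fitted to all 25 mice. In a fit of the 10 wild type and model control mice alone none of the 10 genes was called (Sdf2l1 adjusted p = 0.056, Edem1 0.0709, Xbp1 0.0747 and Atf4 0.095 as adjusted p). In the fit of all groups, only Sdf2l1 was called when wild type mouse 4 was left out.

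**Figure D1:**
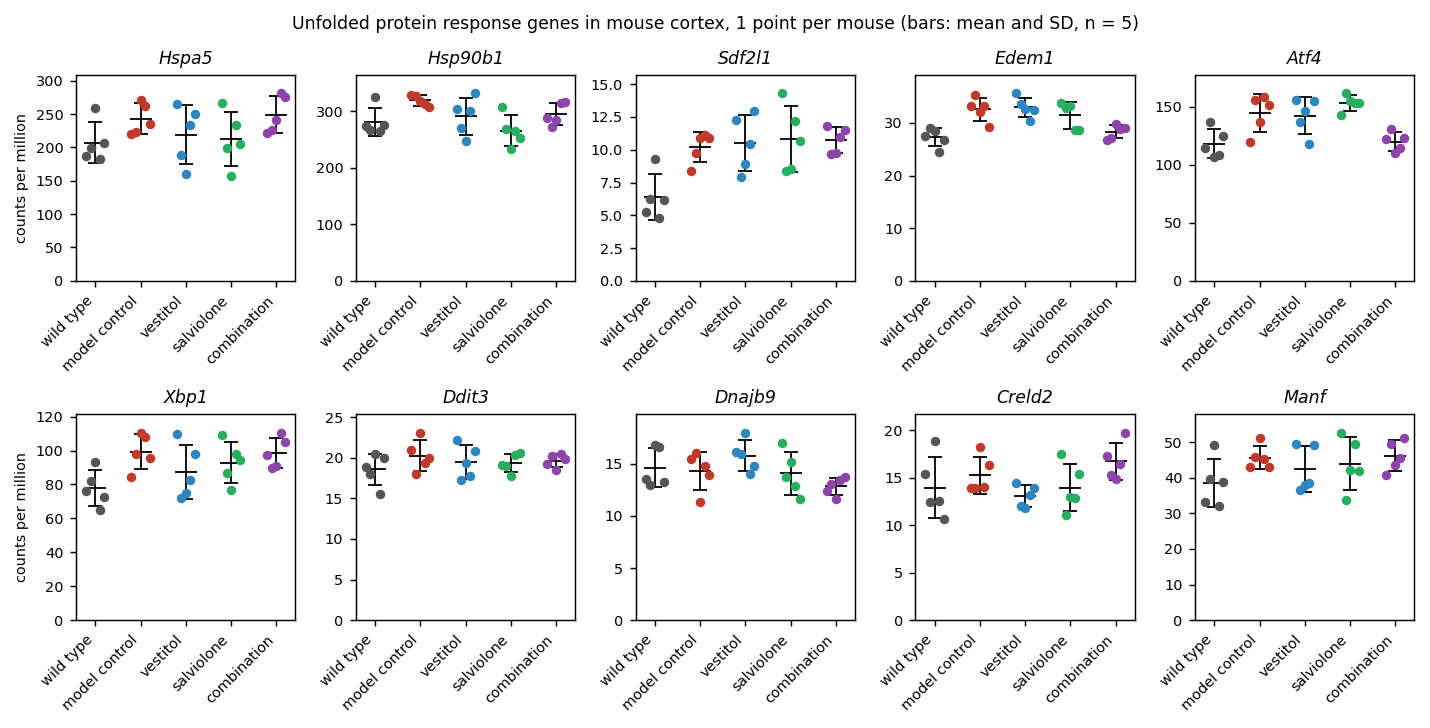
CPM (y axis, from 0) of each of the 10 genes in every mouse, by group (x axis); points are mice, and bars give the mean and SD of 5 mice. In the Sdf2l1 panel all 20 transgenic mice lie above the second highest wild type mouse (6.27 CPM), and in the Atf4 panel the combination mice (110 to 131 CPM) lie in the wild type range.

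Sdf2l1 (mm39 chr16:16948002-16950247) encodes an ER protein that works with BiP and its J-domain partners in keeping substrates soluble. In wild type mice 1 to 5 it stood at 5.27, 6.27, 9.30, 4.80 and 6.18 CPM. In model control mice 1 to 5 it stood at 8.38, 9.73, 10.9, 11.2 and 10.9 CPM. Of the 5 model control mice, 4 were above every wild type mouse, and the overlap came from wild type mouse 3, the library with pituitary RNA. Sdf2l1 rose 1.61-fold (log2 fold change 0.68 ± 0.17 SE, adjusted p = 0.00949, edgeR). Without wild type mouse 3 the log2 fold change was 0.86 (adjusted p = 0.0026). Without model control mice 4 and 5, the libraries high in choroid plexus markers, it was 0.61 and the call was lost (adjusted p = 0.0881). The call was kept in all 10 fits that left out 1 mouse.

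The rise of Sdf2l1 was present in every transgenic group. It stood at 12.3, 7.94, 8.89, 10.5 and 12.96 CPM in vestitol mice 1 to 5. In salviolone mice 1 to 5 it stood at 14.3, 8.37, 8.51, 12.2 and 10.7 CPM. In combination mice 1 to 5 it stood at 11.8, 9.68, 9.76, 10.99 and 11.5 CPM. Of the 20 transgenic mice, 15 were above the highest wild type mouse and 20 above the second highest. Against wild type, edgeR gave log2 fold changes of 0.72 ± 0.17 for vestitol (adjusted p = 0.00422), 0.76 ± 0.17 for salviolone (adjusted p = 0.00241) and 0.76 ± 0.17 for the combination (adjusted p = 0.0157). All 4 comparisons share the 5 wild type mice. With the 20 transgenic mice as the mean of their 4 groups, the difference was 0.73 ± 0.14 (adjusted p = 0.000976).

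Xbp1 (mm39 chr11:5470659-5475893) stood at 76.4, 82.3, 93.4, 65.2 and 72.4 CPM in wild type mice 1 to 5. In model control mice 1 to 5 it stood at 84.6, 98.2, 111, 108 and 95.5 CPM. Again 4 of the 5 model control mice were above every wild type mouse, and the highest wild type value was that of mouse 3. Xbp1 rose by 0.35 ± 0.11 in log2 (adjusted p = 0.0458, edgeR), close to the threshold, and by 0.42 without wild type mouse 3 (adjusted p = 0.0241). The call was kept in 3 of the 10 fits that left out 1 mouse (without wild type mouse 2 or 3 or model control mouse 1) and in 6 of 12 other alternatives. It was lost without model control mice 4 and 5 (0.33, adjusted p = 0.184) and with the choroid plexus score as a covariate (0.33, adjusted p = 0.0735). In the treated groups its values were 71.9 to 110 CPM with vestitol, 76.6 to 109 CPM with salviolone and 89.7 to 110 CPM with the combination.

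Atf4 (mm39 chr15:80139385-80141742), the transcription factor of the PERK branch, stood at 115, 137, 107, 108 and 125 CPM in wild type mice 1 to 5. In model control mice 1 to 5 it stood at 120, 156, 137, 159 and 152 CPM. The groups overlapped in model control mice 1 and 3 and in wild type mice 2 and 5. Atf4 rose by 0.29 ± 0.08 in log2 (adjusted p = 0.0208, edgeR), and the call was lost without wild type mouse 3 (0.25, adjusted p = 0.0586). It was kept in 4 of the 10 fits that left out 1 mouse (wild type mouse 2 or 5 or model control mouse 1 or 3), and lost without model control mice 4 and 5 (0.22, adjusted p = 0.199). With salviolone all 5 mice (143 to 162 CPM) were above all wild type mice, a log2 fold change of 0.37 ± 0.08 (adjusted p = 0.00205).

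Edem1 (mm39 chr6:108805635-108836309), a lectin-like protein that directs misfolded glycoproteins to degradation, stood at 27.5, 29.0, 28.6, 24.6 and 26.8 CPM in wild type mice 1 to 5. In model control mice 1 to 5 it stood at 33.2, 35.3, 32.1, 33.2 and 29.2 CPM. Here the groups did not overlap, although the lowest model control mouse (29.2 CPM) lay next to the highest wild type mouse (29.0 CPM). Edem1 rose by 0.26 ± 0.06 in log2 (adjusted p = 0.0112, edgeR), by 0.27 without wild type mouse 3 (adjusted p = 0.0156), and by 0.30 without model control mice 4 and 5 (adjusted p = 0.0304). Of the 10 fits that left out 1 mouse, the call was lost in that without wild type mouse 4 (0.22, adjusted p = 0.0501).

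The other 6 genes were not called in the model control. Hspa5 (mm39 chr2:34661982-34667559) stood at 187, 199, 260, 183 and 207 CPM in wild type mice 1 to 5. In model control mice 1 to 5 it stood at 221, 224, 272, 263 and 235 CPM. All model control mice were above 4 of the 5 wild type mice, and mouse 3 was the exception. The log2 fold change of Hspa5 was 0.23 ± 0.14 (adjusted p = 0.305, edgeR). Its 95% interval ran from -0.05 to 0.51, which leaves room for a rise as large as that of Xbp1. Without wild type mouse 3 the log2 fold change of Hspa5 was 0.32 (adjusted p = 0.15).

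Hsp90b1 (mm39 chr10:86526704-86541373) stood at 275, 266, 326, 265 and 275 CPM in wild type mice 1 to 5. In model control mice 1 to 5 it stood at 329, 328, 319, 313 and 307 CPM. Wild type mouse 3 fell among the model control mice, and the other 4 wild type mice were below all of them. The log2 fold change was 0.18 ± 0.07 with all mice (adjusted p = 0.11, edgeR) and 0.24 without wild type mouse 3 (adjusted p = 0.0353). The call on this chaperone thus changes with 1 library.

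Manf (mm39 chr9:106715511-106769178) encodes a secreted ER protein with neurotrophic activity. It had 38.5 ± 6.80 CPM in wild type and 45.6 ± 3.30 CPM in the model control (mean ± SD, n = 5 each), a log2 fold change of 0.24 ± 0.12 (adjusted p = 0.195, edgeR). The listed span of Manf overlaps those of Dcaf1 and Rbm15b, so its reads may be less certain. Creld2 (mm39 chr15:88703849-88710886) had 14.0 ± 3.22 and 15.3 ± 1.94 CPM in these groups, a log2 fold change of 0.13 ± 0.13 (adjusted p = 0.6). In both genes wild type mouse 3 had the highest value of its group. Without it the log2 fold change was 0.35 for Manf (adjusted p = 0.0566) and 0.26 for Creld2 (adjusted p = 0.205), and neither was called.

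Ddit3 (mm39 chr10:127126643-127132157), the gene of the pro-apoptotic factor CHOP, had 18.5 ± 1.97 CPM in wild type and 20.3 ± 1.92 CPM in the model control. Its log2 fold change of 0.13 ± 0.08 was not called (adjusted p = 0.355, edgeR). Its 95% interval ran from -0.04 to 0.30. The listed span of Ddit3 overlaps that of Mars1, and the strand setting of the counting is not given in the sources used here. Dnajb9 (mm39 chr12:44252342-44257109), a J-domain partner of BiP, was alone of the 10 in a fold change under 0, at -0.03 ± 0.11 in log2 (adjusted p = 0.895).

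With the mean of the 4 transgenic groups against wild type, the same 4 genes rose and none fell, with 6.12% of all tested genes called higher. The log2 fold changes were 0.20 ± 0.05 for Edem1 (adjusted p = 0.0119), 0.24 ± 0.06 for Atf4 (adjusted p = 0.0151) and 0.28 ± 0.09 for Xbp1 (adjusted p = 0.0426) beside that of Sdf2l1. Without wild type mouse 3, Sdf2l1 (0.91, adjusted p = 0.000216), Edem1, Xbp1 and Manf (0.31, adjusted p = 0.0368) were called and Atf4 (0.20, adjusted p = 0.0622) was not. Against wild type, vestitol and salviolone mice each had 3 members called higher, namely Sdf2l1, Edem1 and Atf4, beside 6.95% and 8.32% of all tested genes. When 1 mouse was left out, the call of Atf4 with vestitol and that of Edem1 with salviolone were each kept in 4 of 10 fits. The call of Xbp1 in the mean of the transgenic groups was kept in 13 of 25. Combination mice had 1 member called higher, Sdf2l1, beside 1.19% of all tested genes. These comparisons share the wild type mice, and a call in one of them and not in another is no test of a difference between treatments.

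Plaque-associated microglia markers differed from wild type beside these genes: 7 of 11 were called higher in the model control, and their mean log2 CPM was 2.90 to 3.47 in wild type and 4.13 to 5.29 in the 20 transgenic mice. Their part in the member changes was not tested. The hypothalamus score also differed between these groups, as given above. With the score as a covariate, none of the 10 genes was called in the model control: the log2 fold change was 0.65 for Sdf2l1 (adjusted p = 0.0805), 0.24 for Edem1 (0.0851 as adjusted p), 0.30 for Xbp1 (adjusted p = 0.243) and 0.17 for Atf4 (adjusted p = 0.281). The fold changes of Sdf2l1, Edem1 and Xbp1 thus moved little, and that of Atf4 shrank. Over all genes that fit called 346, against 1913 without the score. In the same fit, Sdf2l1 (0.72, adjusted p = 0.00485) and Edem1 (0.19, adjusted p = 0.0377) were called for the mean of the transgenic groups, and Atf4 and Xbp1 were not. For salviolone against wild type that fit kept Sdf2l1 (0.74, adjusted p = 0.0198) and Atf4 (0.27, adjusted p = 0.0376) and lost Edem1 (0.19, adjusted p = 0.119).

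**Figure D2:**
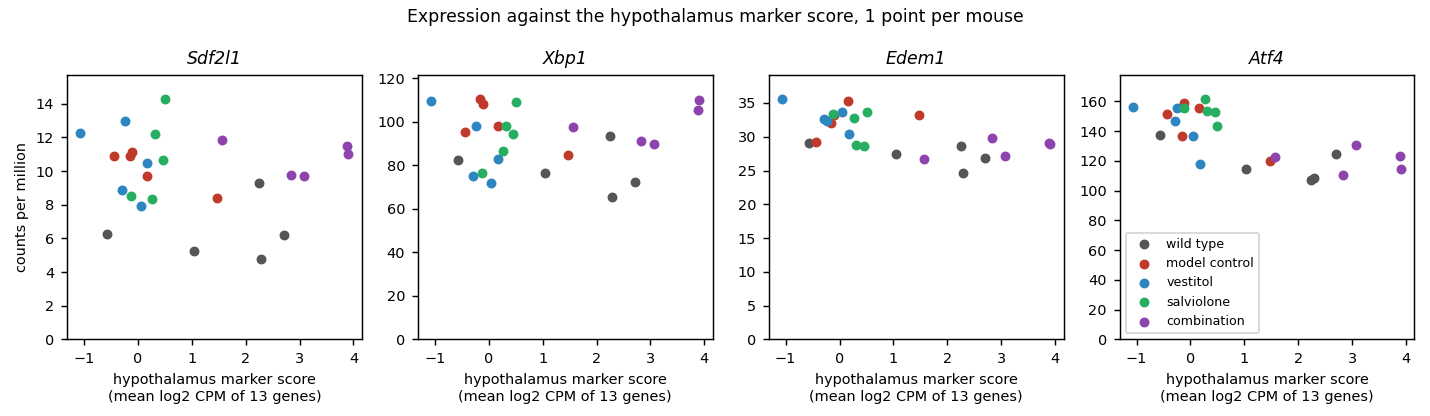
CPM of Sdf2l1, Xbp1, Edem1 and Atf4 (y axes, from 0) against the hypothalamus score (x axes, mean log2 CPM of 13 marker genes), with 1 point per mouse and colours for groups. The combination mice lie at the right (1.56 to 3.91), overlapped by wild type mice (up to 2.71). Wild type mouse 2, with a score of -0.57, has 6.27 CPM of Sdf2l1, below all transgenic mice. It also has the highest wild type values of Edem1 (29.0 CPM) and Atf4 (137 CPM).

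The next comparisons ask what each treatment changed in the model. With either compound alone, none of the 10 genes was called. Vestitol against the model control called 0 of 10, with 0 of 10 also under an unadjusted p of 0.05 and 0 by DESeq2, and 0% of all tested genes were called. Salviolone called 0 of 10, with 1 under an unadjusted p of 0.05 and 0 by DESeq2, and 0.0242% of all tested genes were called. That 1 gene was Hsp90b1, at 307, 269, 234, 266 and 253 CPM in salviolone mice 1 to 5. Its values lay below those of all model control mice (307 to 329 CPM), the highest of them just so. The log2 difference of Hsp90b1 was -0.26 ± 0.07 (adjusted p = 0.17, edgeR).

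The intervals say how large a missed change could be. For Sdf2l1 the 95% interval ran from -0.30 to 0.38 with vestitol and from -0.26 to 0.42 with salviolone, each in log2 against the model control. For Edem1, with its smaller spread, it ran from -0.12 to 0.15 and from -0.18 to 0.08. Vestitol and salviolone, given at the same dose, were also compared with each other. Again 0 of 10 genes were called, with 0 under an unadjusted p of 0.05 and 0 by DESeq2, beside 0.684% of all tested genes. The log2 differences of vestitol against salviolone ran from -0.11 for Atf4 (interval -0.27 to 0.06) to 0.17 for Dnajb9 (interval -0.06 to 0.39). Compounds that miss the threshold against each other are not shown to act alike.

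**Figure D3:**
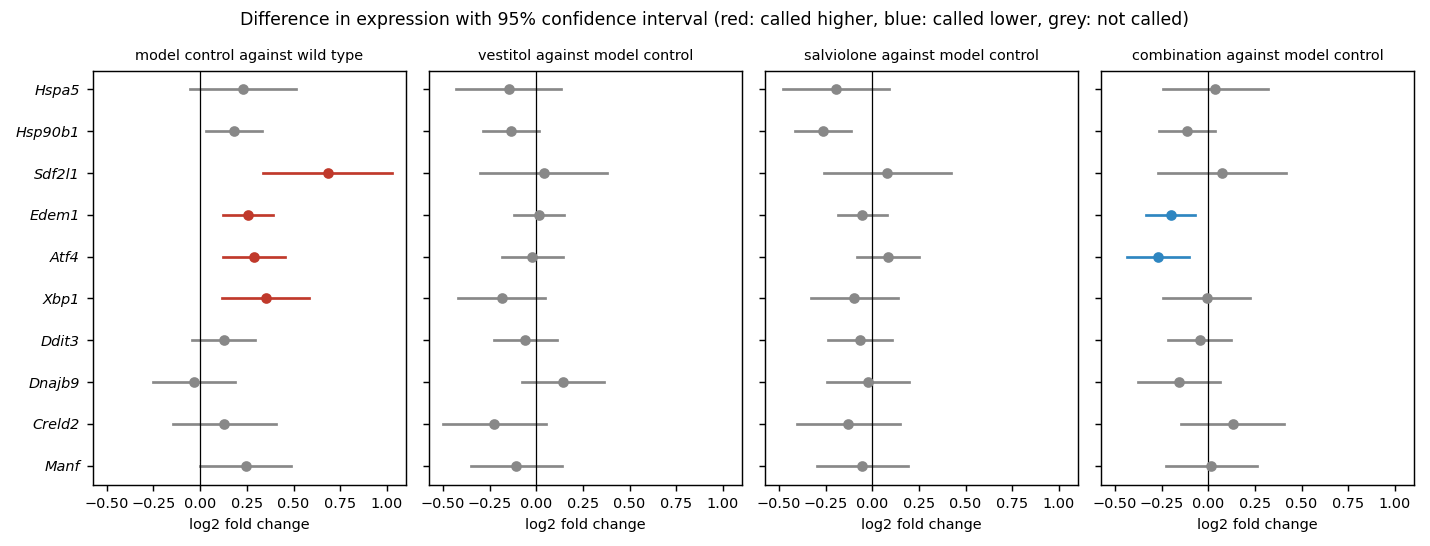
Log2 fold changes (x axis, points) with 95% confidence intervals (lines) of the 10 genes (y axis) in 4 comparisons; red marks genes called higher, blue genes called lower and grey genes not called. Sdf2l1, Edem1, Atf4 and Xbp1 are red for the model control against wild type, and Edem1 and Atf4 are blue for the combination against the model control.

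In the combination group, Atf4 and Edem1 fell against the model control, and the other 8 genes, chaperones included, were not called. Over all tested genes, 7.13% were called lower. Atf4 stood at 122, 131, 110, 114 and 123 CPM in combination mice 1 to 5, against 120 to 159 CPM in the model control. In the model control 4 mice were above all combination mice, and mouse 1 was within their range. The log2 difference of Atf4 was -0.27 ± 0.08 (adjusted p = 0.0251, edgeR). The combination mean of 120 ± 7.89 CPM lay close to the wild type mean of 118 ± 12.7 CPM, with a log2 difference of 0.02 and an interval from -0.15 to 0.19.

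Edem1 stood at 26.8, 27.2, 29.7, 28.9 and 29.1 CPM in combination mice 1 to 5. Only the lowest model control mouse (29.2 CPM) fell into this range. The log2 difference of Edem1 from the model control was -0.20 ± 0.06 (adjusted p = 0.0352, edgeR). Against wild type it was 0.05 with an interval from -0.08 to 0.19. The comparisons with wild type and with the combination share the 5 model control mice, whose values enter both with opposite signs. Of the 10 fits that left out 1 mouse, 4 called Edem1 and 5 called Atf4. Neither gene was called without model control mouse 2 or 4 or combination mouse 4. Edem1 was also lost without model control mouse 1 or combination mouse 1 or 2, and Atf4 without model control mouse 5 or combination mouse 3.

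Against the mean of the single compounds, which does not use the model control mice, the combination was also lower in Atf4 (-0.30 ± 0.07, adjusted p = 0.00241) and Edem1 (-0.18 ± 0.06, adjusted p = 0.0178). Without combination mouse 1, Edem1 lost this call (-0.17, adjusted p = 0.059). Here 11.2% of all tested genes were called lower. Creld2, at 14.9 to 19.7 CPM with the combination, 11.8 to 14.4 CPM with vestitol and 11.1 to 17.5 CPM with salviolone, was 0.31 ± 0.11 higher and just missed the call (adjusted p = 0.0513, edgeR). DESeq2 called it. Dnajb9 was at 11.6 to 13.7 CPM in combination mice, all 5 below the wild type mean of 14.6 CPM, with a log2 difference of -0.22 ± 0.09 from the single compounds (adjusted p = 0.0952).

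The combination libraries also had higher hypothalamus scores (1.56 to 3.91) than all model control and single-compound libraries. Wild type libraries overlapped them, with scores up to 2.71. Other marker lists moved beside Atf4 and Edem1 too. Of 8 striatum markers, 7 were higher in the combination group than in the model control, with a mean log2 CPM of 6.77 to 7.56 against 6.07 to 6.62. Of 10 immediate-early genes, 6 were lower (5.30 to 5.77 against 5.88 to 6.59), as were 6 of 13 mitochondrially encoded genes (7.41 to 7.76 against 7.76 to 8.32). Of 10 choroid plexus markers, 1 was higher and 3 were lower (0.44 to 1.96 against 0.60 to 3.59). The part of these lists in the changes of Atf4 and Edem1 was not tested, apart from the choroid plexus score: with it as a covariate both kept their calls (Atf4 -0.27, adjusted p = 0.0367, and Edem1 -0.21, adjusted p = 0.0331). With the hypothalamus score as a covariate instead, the log2 difference from the model control became -0.01 for Atf4 (adjusted p = 0.991) and -0.17 for Edem1 (adjusted p = 0.74). Against the single compounds these became -0.03 and -0.15. That fit called 0 of all 16515 genes in either comparison. Since the hypothalamus scores of the combination mice lie above those of all model control and single-compound mice, treatment and hypothalamus score cannot be told apart here. Without the 3 deepest combination libraries, neither gene was called (Atf4 -0.20, adjusted p = 0.315, and Edem1 -0.27, adjusted p = 0.0782). Without model control mice 4 and 5, Edem1 kept its call (-0.24, adjusted p = 0.0477) and Atf4 did not (-0.20, adjusted p = 0.224).

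Within groups, 6 of the genes moved together from mouse to mouse. With each gene centred on its group means, the Pearson correlation over 25 mice was 0.88 between Hspa5 and Xbp1, 0.88 between Sdf2l1 and Xbp1, 0.855 between Hspa5 and Hsp90b1, and 0.82 between Sdf2l1 and Manf. Over the 15 pairs of Hspa5, Hsp90b1, Sdf2l1, Xbp1, Creld2 and Manf, a set picked after these values were seen, it ran from 0.567 to 0.879. Over all 45 pairs of the 10 genes the median was 0.268. The points share a library and hence its depth and tissue content. Without wild type mouse 3, the value between Hspa5 and Xbp1 was 0.86 and that between Sdf2l1 and Xbp1 was 0.87.

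Atf4 and Edem1, the members that fell with the combination, did not follow this set of correlated genes. The correlation of Atf4 was -0.07 with Hspa5 and 0.21 with Xbp1, and that of Edem1 was 0.13 with Hspa5 and 0.26 with Xbp1. Between Atf4 and Edem1 it was 0.17. Ddit3 correlated at 0.62 with Xbp1 and 0.125 with Atf4. Dnajb9 stood apart from that set too, at -0.08 with Hspa5, and was at 0.37 with Edem1.

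**Figure D4:**
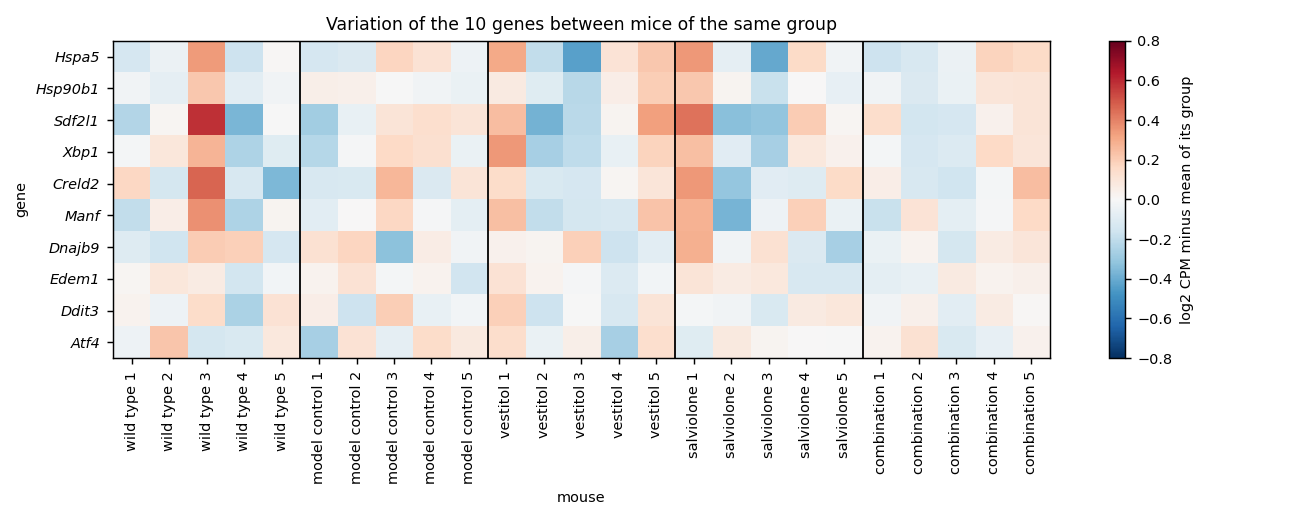
Heat map of log2 CPM minus the mean of the mouse's own group, for the 10 genes (rows) in 25 mice (columns, black lines between groups); red is above and blue below the group mean. The top 6 rows all share their colour in some mice, such as wild type mouse 3 and salviolone mouse 1 (red). In others, such as model control mouse 4, they are mixed. The row of Atf4 does not follow the top 6 rows.

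Among 12730 further genes, those whose group-centred pattern over the 25 mice was most like a member's were named by a rule. For Hspa5 they were Pdia4 (r = 0.848), Pdia6 (0.829) and Sfpq (0.817), and for Hsp90b1 Pdia3 (0.836), Anp32b (0.809) and Zcchc7 (0.806). Pdia3, Pdia4 and Pdia6 encode disulfide isomerases of the ER. For Sdf2l1 they were Dnajc3 (0.823), an ER J-domain protein, Pdia4 (0.822) and Noxred1 (0.796), and for Xbp1 Noxred1 (0.879), P4ha1 (0.876) and Imp4 (0.793). For Atf4 they were Rel (0.784), Ier2 (0.76) and Tbc1d30 (0.755), and for Ddit3 Nfil3 (0.772), Stk40 (0.721) and Ppp1r3c (0.706). Rel and Nfil3 encode transcription factors, and Ier2 is an immediate-early gene. Edem1 was closest to Pir (0.774), Prpf39 (0.769) and Acsl3 (0.767), and Dnajb9 to Gmds (0.75), Slc35a3 (0.705) and Zbtb41 (0.692). Creld2 was closest to Odad3 (0.806), Nop9 (0.764) and Myo1a (0.723), and Manf to Kansl3 (0.779), Samd4b (0.772) and Prkd2 (0.769). These are descriptions of the highest values among many.

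Of 122 tested genes in 5 further lists, 8 (6.56%) rose and 10 (8.2%) fell in the model control, beside 5.37% and 6.21% of all tested genes, and the median log2 fold change was 0.00. These shares lie near those of all genes, so the counts are no result about the lists, and the genes named next describe their own rows. Of the 10 sensors and their processing factors, Atf6 rose from 92.8 ± 17.8 to 122 ± 10.7 CPM (log2 fold change 0.39 ± 0.09, adjusted p = 0.00524, edgeR). The site-1 protease gene Mbtps1 (-0.16 ± 0.05), whose product cuts ATF6, and Creb3 (-0.18 ± 0.06) fell. Ern1, at 27.2 ± 4.85 CPM in wild type and 26.0 ± 1.81 CPM in the model control, and Eif2ak3, at 39.6 ± 1.26 and 40.7 ± 3.06 CPM, were not called.

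Among 22 further ER chaperones and folding enzymes, 3 fell in the model control and none rose. They were Sil1 (-0.33 ± 0.09), the nucleotide exchange factor of BiP, Dnajc10 (-0.26 ± 0.08) and the disulfide isomerase Txndc5 (-0.44 ± 0.14). Txndc5 varied widely between model control mice (52.1 ± 14.9 CPM, against 70.8 ± 4.44 CPM in wild type). Among 20 genes of ER-associated degradation, the ubiquitin-conjugating enzyme Ube2j1 (0.22 ± 0.04, adjusted p = 0.00172) and Selenok (0.20 ± 0.05) rose. Among 38 genes of translocation and the early secretory pathway, Stt3b, Spcs3 and Sec62 rose and 4 fell: the COPII coat gene Sec24d (-0.73 ± 0.16), Srp14 (-0.28 ± 0.06), Rpn2 and Ddost.

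The PERK and ATF4 branch list has 32 tested genes. In the model control Cebpg (0.24 ± 0.06), which pairs with ATF4, and Psph (0.25 ± 0.08), of serine synthesis, rose. The cystine transporter gene Slc7a11 (-0.33 ± 0.10) fell. In the mean of the 4 transgenic groups 7 genes (21.9%) rose and 2 (6.25%) fell. The 5 with the smallest adjusted p were Chac1 (0.50 ± 0.10, adjusted p = 0.00145), which degrades glutathione, Slc7a11 (-0.37 ± 0.08), Cebpg (0.22 ± 0.05), Atf5 (0.28 ± 0.08) and Asns (0.19 ± 0.06), the asparagine synthetase. With the hypothalamus score as a covariate, Chac1 stood at 0.51 (adjusted p = 0.00504) and Cebpg at 0.20 (adjusted p = 0.0233) in that comparison.

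Over all 5 lists, 12 genes (9.84%) rose and 8 (6.56%) fell in the mean of the 4 transgenic groups, beside 6.12% and 8.02% of all tested genes. Atf6 rose by 0.32 ± 0.07 (adjusted p = 0.00339), and by 0.26 with the hypothalamus score as a covariate (adjusted p = 0.013). Creb3 fell by 0.15. Of the chaperone list Sil1 (-0.33 ± 0.07) fell and Creld1 (0.14 ± 0.04), the homologue of Creld2, rose. Of the degradation list Ube2j1 (0.18 ± 0.03) and Selenok (0.14 ± 0.04) rose. Sec24d (-0.71 ± 0.12, adjusted p = 0.000388), Srp14, Rpn2 and Ddost fell, and Stt3b rose.

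**Figure D5:**
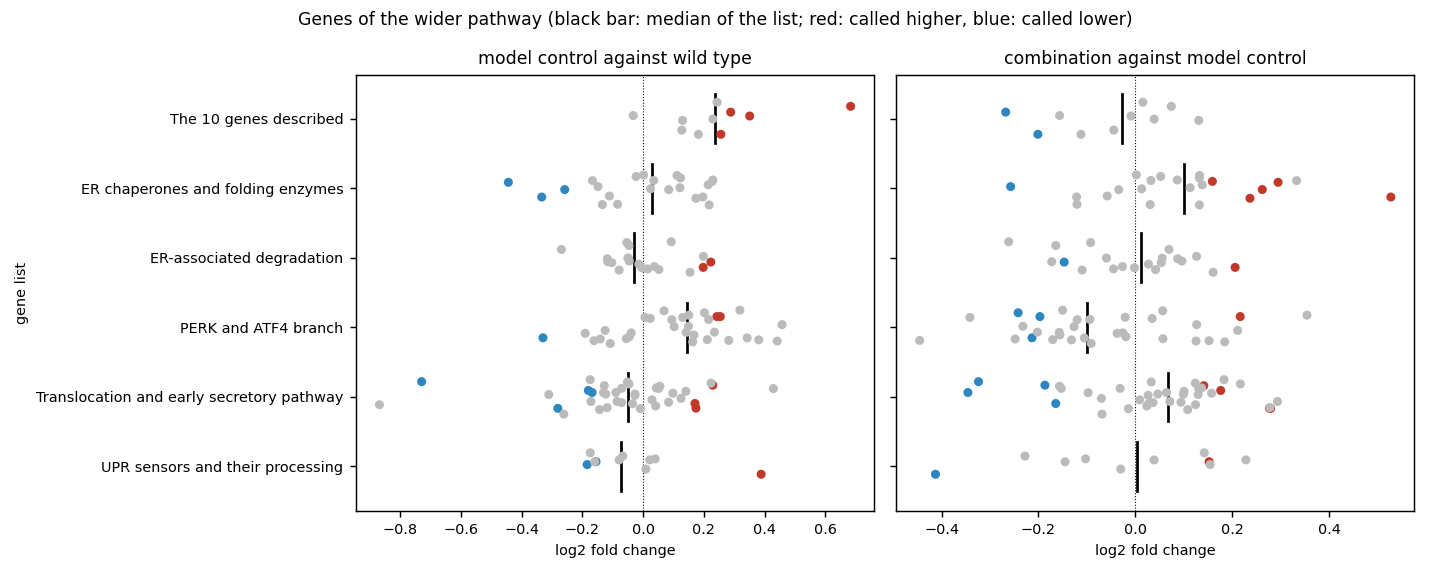
Log2 fold change (x axis) of every tested gene of the 10 members and 5 further lists (rows), for the model control against wild type (left) and the combination against the model control (right); points are genes, black bars list medians, red and blue genes called higher and lower. Atf6, in the lowest row, is red at 0.39 on the left and blue at -0.41 on the right.

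With vestitol or salviolone alone, 0 of the 122 genes were called against the model control. With the combination, 12 (9.84%) rose and 10 (8.2%) fell, beside 7.83% and 7.13% of all tested genes, and the median log2 fold change was 0.03. The same model control mice enter this comparison and that with wild type, with opposite signs. Atf6 fell to 91.3 CPM, from 122 CPM in the model control (-0.41 ± 0.09, adjusted p = 0.0021), and Mbtps1 rose (0.15 ± 0.05). Of the chaperone genes 5 rose, namely Txndc5 (0.53 ± 0.14), Dnajc10, Sil1, Hspa13 and Sdf2, the homologue of Sdf2l1, and Ero1b fell. Ube2j1 fell (-0.15 ± 0.04) and Derl1 rose (0.21 ± 0.06). In the PERK and ATF4 branch, the transfer RNA synthetase genes Gars (-0.20 ± 0.05) and Nars (-0.24 ± 0.08) fell with Cebpg (-0.21 ± 0.06), and Phgdh rose (0.22 ± 0.07). In the secretory list 4 rose and 4 fell, led by Rpn2 (0.28 ± 0.05), Spcs3 (-0.32 ± 0.06), Srp14 (0.28 ± 0.06), Stt3b (-0.19 ± 0.04) and Stt3a (-0.35 ± 0.10). None of these calls was left with the hypothalamus score as a covariate, where Atf6 was at -0.15 (adjusted p = 0.798).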

How the data were processed

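The authors deposited raw counts per gene and FPKM for the same 25 libraries. Per the submitters' processing notes, reads were trimmed with Trim Galore and aligned with STAR to mm39; per the labels, a TruSeq and a SMARTER kit were used. For versions, the counting program, strandedness and gene models, nothing is given in the sources used here. The deposited FPKM imply gene lengths unrelated to annotated exons (Pearson r 0.144 over 14370 genes; 7.27% exceed the gene's own span), so FPKM were used within genes only and levels between genes are CPM per kb of GENCODE M21 exon length.

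Counts were scaled by TMM (factors 0.98 to 1.04), filtered with filterByExpr (minimum count 10; 16515 genes left) and fitted in edgeR 4.0.16 under R 4.3.3 with a term for each group, tested two-sided with its robust quasi-likelihood F test, with Benjamini-Hochberg over all tested genes in each of 10 comparisons. SE were derived from the F statistic. The script was tested on simulated data. Log2 CPM used a prior count of 2. Alternatives used DESeq2 1.42.0, limma 3.58.1, other filters, covariates and left-out mice. The members, 5 further pathway lists and 21 marker lists were chosen with earlier results of these data known. Named genes outside the members were up to 5 called per list with the smallest adjusted p, and the 3 most correlated per member (mean log2 CPM of at least 1, predicted genes passed over). Ern1, Eif2ak3, Sec62, Ddost and Ero1b fall outside this rule in 1 or more comparisons and were named after their values were seen. Each library comes from its own mouse, and no column was left unmatched to a sample. A part of the transgenic genotype is not reported here.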

Additional observations from a re-analysis of the deposited data

Results flagged for a closer look

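In wild type mouse 3, Hsp90b1 stood at 325.6 CPM, far above the other 4 wild type mice (265 to 275 CPM). It was the only value past the 95% critical value of Dixon's gap test among the 50 sets of 5 mice examined (10 genes in 5 groups), where chance alone gives about 1 in 20. This mouse is the library with pituitary hormone RNA. Without it, Hsp90b1 was called higher in the model control (log2 fold change 0.24, adjusted p = 0.0353, edgeR), and with it the gene was not called (0.18, adjusted p = 0.11).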

How the results depend on the processing

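RLE scaling, other filters, DESeq2, limma on log2 FPKM plus 0.1 or 1, counts divided by 4 and the choroid plexus score moved no count of called members by more than 1.5 times. Fitting only the groups compared called 0 members in the model control against wild type (smallest adjusted p 0.056, Sdf2l1; 349 of all genes called) and 0 in the combination against wild type. With the hypothalamus score the count was 0 for the model control, vestitol and the combination, each against wild type, and 0 for the combination against the model control and against the single compounds. The count with that score was 2 for the mean of the 4 transgenic groups and 2 (Sdf2l1 and Atf4) for salviolone against wild type. Without model control mice 4 and 5 it was 1 (Edem1) in the model control against wild type and 1 (Edem1) in the combination against the model control. Without the 3 deepest combination libraries, chosen after seeing the data, it was 0 for the combination against the model control, the single compounds and wild type. Leaving out 1 mouse gave 1 to 4 called members in the model control against wild type (1, Sdf2l1, without wild type mouse 4), 0 to 2 in the combination against the model control (0 without model control mouse 2 or 4 or combination mouse 4), 1 to 3 against the single compounds (1 without combination mouse 1), 1 to 4 in the mean of the transgenic groups (1 without wild type mouse 4) and 0 to 2 in the combination against wild type (0 and 2 when wild type mouse 1 or 3 was left out). The cause was not tested. Dnajb9, not called in the model control, was at 0.055 with the hypothalamus score and at -0.075 to 0.042 when 1 mouse was left out, above 0 for wild type mice 3 and 4 and model control mouse 3. For single named changes, 518 values kept their side of the threshold, 93 lost it, 1 gained it and 4 changed sign.

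The replicate numbers did not pair the mice (same-numbered mice of different groups correlated at -0.0921 to 0.091, 50 pairs). A fit with the number as a replicate block called 3 members in the model control against wild type and 3 in the mean of the transgenic groups, Xbp1 being lost, and 3 in the combination against the single compounds, Creld2 being added. The smallest deposited count of a member in any library was 337. With 5 mice per group, how much of the spread comes from counting error and how much from differences between mice was not tested.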
